A study of Gallus gallus with 16 samples.

Results

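The comparison described here is of chick eyes after 24 h of recovery from form deprivation with eyes taken at the moment the occluder came off. It uses 8 of the 16 libraries of the series, 4 of each group, chosen by their labels. Form deprivation is the wearing of a translucent cover that lets light through but blurs the image, which makes the growing eye elongate and become myopic. All chicks were male, of a Leghorn/New Hampshire cross, and were raised on a 12 h light and 12 h dark cycle. In the FDMR 24 h group (chicks 26, 29, 30 and 32), the right eye was occluded for 7 days and then had 24 h of normal vision, 1 night included. In the FDMR 0 h group (chicks 9, 10, 12 and 13), the right eye was occluded for the same 7 days and the tissue was taken at occluder removal. Both groups were collected at about 10 am, so the hour of the day was shared to that precision only. The FDMR 24 h chicks were 1 day older. The sample labels give post-hatch day 21 for the 24 h chicks and day 20 for the 0 h chicks, whereas the protocol places the start of occlusion at day 5, and this difference could not be resolved. The other groups of the series were 4 chicks after 6 h of recovery (FDMR 6 h, taken in the afternoon) and 4 chicks that never wore an occluder (No-Lens control, taken with the 0 h group). The 4 chicks of a group were selected by the study out of a larger set for similar axial length, and each library is the retina, retinal pigment epithelium (RPE) and choroid of 1 right eye. Each chick was therefore 1 replicate, and p-values set group differences against the spread between chicks, estimated over all 16 libraries. As the chicks were selected, this spread may differ from that of unselected chicks.

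The posterior eye is a stack of tissues that signal to each other. The retina reads the quality of the image, the RPE lies between the retina and the vascular choroid, and the choroid changes its thickness and its secreted products as the eye speeds up or slows its growth. Bone morphogenetic proteins (BMPs) are secreted ligands of the TGF-beta superfamily that the RPE makes in the chick, and retinoic acid is made from retinaldehyde by dehydrogenases in the retina and choroid. Because all these tissues were extracted together, fewer cells of a type and less RNA per cell cannot be told apart in any value below.

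Between 1553717 and 4363296 reads fell on genes in the FDMR 24 h libraries, and between 3411316 and 4816425 in the FDMR 0 h libraries. The lowest value belonged to FDMR 24 h chick 29, in which mitochondrially encoded genes took 7.0% of the counts on genes, against 4.26% to 5.40% in the other 24 h chicks and 3.79% to 4.48% in the 0 h chicks. Levels are given as CPM, the reads of a gene scaled to a common library size, always in the chick order 26, 29, 30, 32 for 24 h and 9, 10, 12, 13 for 0 h. The defining markers of the labelled tissue were present. RPE65 and RLBP1 of the RPE averaged 604.2 and 530.2 CPM at 24 h and 567.6 and 464 CPM at 0 h, the cone arrestin ARR3 averaged 1353 CPM at 24 h and 1426 CPM at 0 h, and the choroidal endothelial gene KDR averaged 240.8 CPM at 24 h and 250.7 CPM at 0 h. Of the scleral cartilage markers, COL2A1 averaged 64.4 CPM at 24 h and 69.2 CPM at 0 h, ACAN had 15 counts over the 4 libraries at 24 h and 12 at 0 h, and MATN1 had none in any of the 8 libraries, while the lens markers CRYAA, CRYBB1 and ASL1 had 31, 19 and 24 counts over the 4 libraries at 24 h and 4, 4 and 1 at 0 h, too few to be tested.

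After 24 h of recovery, 127 of the 11334 genes tested differed from occluder removal at a false discovery rate (FDR) of 5% by edgeR's quasi-likelihood test (1.12%). Of these, 67 were higher (0.591%) and 60 were lower (0.529%) at 24 h. At an unadjusted p under 0.05, 1082 genes differed (9.55%), 524 higher (4.62%) and 558 lower (4.92%). These shares over all genes are the ones to set beside the counts of each gene list below. The lists were chosen with earlier results of these data known. Among called genes with a symbol and a mean of at least 10 counts over the 8 chicks, the largest rises by fold were in PTX3, a long pentraxin of innate immunity, and the ligand BMP2. By the same measure the largest falls were in CFC1B, a member of the EGF-CFC family of Nodal co-receptors, and FGL2, a fibrinogen-like protein. Among called genes, falls were the deeper changes, with a median size of 1.39 on the log2 scale against 0.92 for rises. The called falls were also at a lower level, with a median of 33.4 CPM over the 8 libraries against 47.8 CPM for the called rises. The median over all genes tested was 0.00145, and 50.3% of genes lay above 0. In 67 of the 67 rises and 58 of the 60 falls the 4 chicks of the FDMR 24 h group did not overlap the 4 of the FDMR 0 h group, against 6.33% of all genes tested (2.99% higher and 3.34% lower). The calls were made on the same chicks, so this separation largely follows from them and is no further support. The count rested in part on single birds. It was 64 without FDMR 24 h chick 32, 84 without FDMR 0 h chick 12 and 76 without FDMR 0 h chick 13, while without the shallow chick 29 it was 99.

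**Figure D1:**
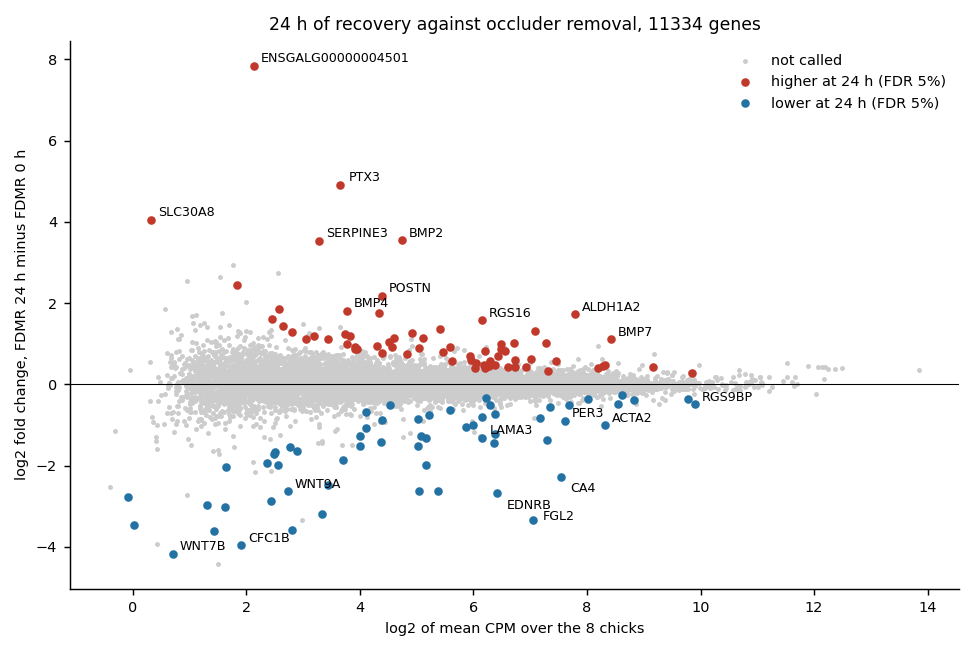
Each point is 1 of 11334 genes, with the log2 of its mean CPM over the 8 chicks on the horizontal axis and the log2 fold change of FDMR 24 h minus FDMR 0 h on the vertical axis. Red points are the 67 genes called higher and blue points the 60 called lower at 24 h. BMP2 and PTX3 stand above the other rises at their level, and FGL2, EDNRB and CA4 below the other falls at theirs.

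The ligands BMP2, BMP4 and BMP7 were all higher after 24 h of recovery. BMP2, which signals through BMP receptors to SMAD proteins, had 55.6, 49.2, 48.5 and 43.3 CPM at 24 h, against 3.28, 3.45, 6.91 and 3.3 CPM at 0 h. The lowest 24 h chick lay far above the highest 0 h chick, and the log2 fold change was 3.55 ± 0.20 (SE, adjusted p = 1.08e-08). BMP7, a related ligand, had 495, 518, 415 and 451 CPM at 24 h and 219, 221, 226 and 202 CPM at 0 h, a log2 fold change of 1.11 ± 0.12 (adjusted p = 4.54e-05). All 4 chicks at 0 h were within a narrow band, and every 24 h chick was well above it. BMP4 had 18.8, 16.6, 23.7 and 25.9 CPM at 24 h and 3.28, 5.75, 7.49 and 7.64 CPM at 0 h, with no overlap between the groups (log2 fold change 1.82 ± 0.43, adjusted p = 0.0438). ID2, a helix-loop-helix inhibitor whose transcription BMP signals raise, averaged 129 ± 19.7 CPM at 24 h and 83.1 ± 10.1 CPM at 0 h (SD, n = 4 each) and rose by 0.61 ± 0.11 on the log2 scale (adjusted p = 0.00689). Of 29 BMP pathway genes tested, these 4 were called higher (13.8%, against 1.12% of all genes called) and none was called lower. At an unadjusted p under 0.05, 7 were higher and 5 lower, against 4.62% and 4.92% of all genes. The 5 were the ligands BMP3 and BMP5 (log2 fold change -0.68 and -0.98) and NOG, FST and CHRDL1. The median of the list was -0.01. The BMP4 call was lost in 13 of the 16 fits that left out 1 library, all but those without 6 h chick 23 or No-Lens control chicks 3 or 7 (adjusted p up to 0.153).

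Among 19 TGF-beta and activin genes tested, CTGF was higher and CFC1B was lower, with a median of 0.10 for the list. CTGF, a matricellular protein induced by TGF-beta, had 195, 229.8, 232 and 181 CPM at 24 h and 107, 116, 86.1 and 99.7 CPM at 0 h (log2 fold change 1.03 ± 0.14, adjusted p = 0.00047). CFC1B had 0.247, 0, 0.919 and 0.267 CPM at 24 h, against 6.02, 3.74, 7.2 and 11.6 CPM at 0 h. It was nearly absent at 24 h, with 1, 0, 4 and 1 counts, and the log2 fold change was -3.96 ± 0.70 (adjusted p = 0.00578). Of 35 Wnt pathway genes tested, 1 was higher and 2 were lower (median 0.07). The ligand WNT9A had 1.48, 1.33, 1.84 and 2.4 CPM at 24 h and 9.03, 10.1, 15.3 and 11.6 CPM at 0 h, a log2 fold change of -2.63 ± 0.35 with wide separation of the groups (adjusted p = 0.00047). Another ligand, WNT7B, had 0, 0, 2 and 0 counts at 24 h, against 8, 5, 19 and 17 counts at 0 h. Summed over chicks and scaled to depth, the 0 h level of WNT7B was 21.9 times that at 24 h (95% exact interval 5.76 to 186, counting error only), and the adjusted p was 0.0125. A count of 0 allows up to 0.688 CPM in the deepest and 1.93 CPM in the shallowest 24 h library. TSKU, a secreted leucine-rich protein known in the chick embryo to bind BMPs, averaged 26.1 ± 5.45 CPM at 24 h and 13.4 ± 1.43 CPM at 0 h and was higher by 0.94 ± 0.18 on the log2 scale (adjusted p = 0.0125). Leaving out 1 library ended the call of WNT7B, without 24 h chick 32 (adjusted p 0.0619).

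Of the genes of retinoid metabolism, 4 were higher after 24 h of recovery. ALDH1A2, the retinaldehyde dehydrogenase that makes retinoic acid, had 390.3, 387, 268 and 309 CPM at 24 h and 101, 96, 113 and 96.4 CPM at 0 h. The 0 h chicks differed little among themselves, every 24 h chick was far above them, and the log2 fold change was 1.73 ± 0.16 (adjusted p = 8.47e-06). BCMO1, which cleaves beta-carotene to retinaldehyde, had 153, 136, 142 and 130 CPM at 24 h and 69, 67.6, 76.3 and 64.6 CPM at 0 h (log2 fold change 1.02 ± 0.17, adjusted p = 0.00418). DHRS3, which reduces retinaldehyde to retinol, averaged 88.7 ± 10.5 CPM at 24 h and 65.6 ± 4.87 CPM at 0 h (adjusted p = 0.034). RGR, an opsin of the RPE, averaged 657 ± 92.9 CPM at 24 h and 483 ± 36.9 CPM at 0 h (adjusted p = 0.0247). These 4 were the called members of 27 tested (14.8%, against 1.12% of all genes), none was lower, and the median of the list was 0.16. A further dehydrogenase, ALDH1A3, was not called, at 19.3, 1.33, 18.6 and 19.2 CPM at 24 h and 42.7, 22.4, 41.8 and 52.7 CPM at 0 h (-1.30 ± 0.39 on the log2 scale, adjusted p = 0.164), and its 24 h value in chick 29 was far below the other 3. Calls ended by leaving out 1 library at a time, with the highest adjusted p in brackets, were DHRS3 without 24 h chicks 26, 30 or 32 or 0 h chicks 9, 10, 12 or 13 (0.147), and RGR without 24 h chicks 26, 29 or 32 or 0 h chicks 10, 12 or 13 (0.0983).

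**Figure D2:**
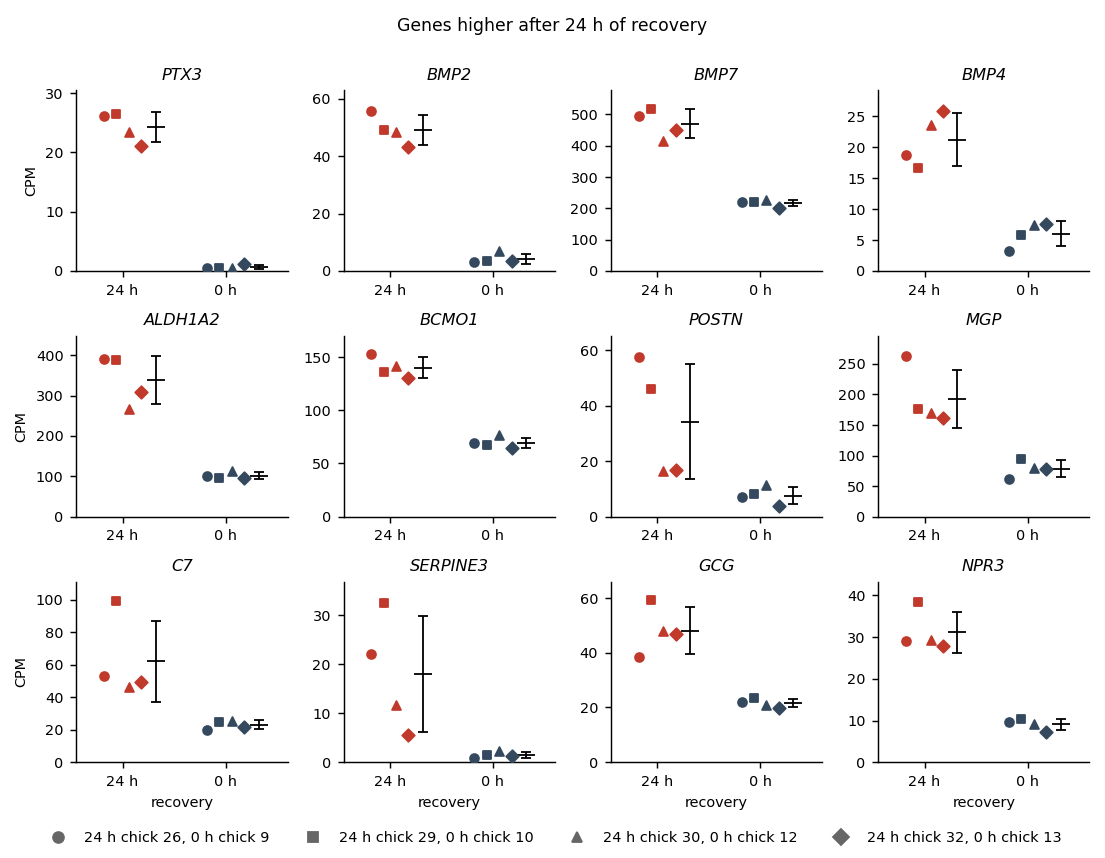
CPM of 12 genes higher after 24 h of recovery, with 1 point per chick on a linear axis from 0, FDMR 24 h (red) left of FDMR 0 h (dark), and the mean ± SD of 4 chicks beside the points. Marker shapes name chicks and do not pair them. In each panel the 4 points at 24 h lie above the 4 at 0 h, and SERPINE3 and POSTN spread widely among the 24 h chicks.

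PTX3, which binds microbial surfaces and complement C1q, had 26.2, 26.6, 23.4 and 21.1 CPM at 24 h, against 0.547, 0.575, 0.576 and 1.24 CPM at 0 h. The 24 h chicks were close to each other and the 0 h chicks were all near the floor, giving a log2 fold change of 4.91 ± 0.47 (adjusted p = 1.07e-05). Of 24 tested genes of pentraxins, lectins and the acute response, PTX3 was higher and FGL2 was lower (median 0.02). In the complement list, 3 of 15 tested members were higher (20%, against 1.12% of all genes called) and none was lower (median 0.17). C7, a component of the membrane attack complex, had 53.1, 99, 46.4 and 49.7 CPM at 24 h and 20, 25, 25.6 and 21.5 CPM at 0 h (log2 fold change 1.37 ± 0.22, adjusted p = 0.00344). MASP1, a serine protease of the lectin pathway, had 7.91, 14.6, 7.13 and 7.48 CPM at 24 h and 3.56, 4.03, 2.3 and 3.1 CPM at 0 h (log2 fold change 1.43 ± 0.33, adjusted p = 0.0392). In both genes the shallow chick 29 was the highest bird at 24 h, and the other 3 still exceeded all 0 h chicks. PROS1, the anticoagulant protein S that circulates with a complement inhibitor, averaged 358 ± 19.1 CPM at 24 h and 263 ± 20.3 CPM at 0 h (adjusted p = 0.0164). None of the 12 macrophage and leukocyte markers tested was called, and neither DESeq2 nor limma-voom called any. An unadjusted p under 0.05 was reached by 2 of them, against 9.55% of all genes. Their summed level was 237 to 291.6 CPM at 24 h and 208.5 to 250.9 CPM at 0 h, all 12 differences were above 0, and their part in these results was not tested. The calls lost when 1 library was left out were PROS1 without 24 h chicks 26 or 32 or 0 h chicks 9 or 12 (0.0657), and MASP1 in 10 of the 16 fits, all but those without 6 h chicks 18, 19 or 23 or No-Lens control chicks 3, 4 or 6 (0.137).

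In the tumour necrosis factor family, a ligand and its decoy receptor were both lower. TNFRSF11B (osteoprotegerin), a secreted receptor that binds TRAIL and RANKL, had 18.8, 12.6, 17.5 and 17.9 CPM at 24 h and 38.6, 42.3, 49.5 and 64.2 CPM at 0 h (log2 fold change -1.51 ± 0.20, adjusted p = 0.00047). TNFSF10, which encodes TRAIL, had 11.4, 12, 11.7 and 9.88 CPM at 24 h and 17.8, 22.4, 25.6 and 27.9 CPM at 0 h (log2 fold change -1.07 ± 0.18, adjusted p = 0.00344). The groups did not overlap for either gene. TNFAIP2, a gene induced by this cytokine family, averaged 55.9 ± 10.2 CPM at 24 h and 32 ± 3.19 CPM at 0 h and was higher by 0.80 ± 0.15 (adjusted p = 0.00845), a call lost without 24 h chick 32 (adjusted p 0.055). These were the called members of 36 tested (8.33%, against 1.12% of all genes), and the list median was -0.12. Of the 36, 12 lay above 0 and 24 below. At an unadjusted p under 0.05, 3 were higher and 8 lower, against 4.62% and 4.92% of all genes. The single called member of 28 apoptosis genes was GSN (gelsolin), an actin-severing protein and caspase substrate. It had 88, 89.7, 102 and 75.3 CPM at 24 h and 219, 162, 244 and 284 CPM at 0 h (log2 fold change -1.36 ± 0.21, adjusted p = 0.00237), and the median of that list was -0.11. Of its 28 genes, 7 lay above 0 and 21 below, with 1 higher and 2 lower at an unadjusted p under 0.05.

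Matrix genes moved both ways. Of 47 matrix proteins other than collagens, 2 were higher and 4 were lower (median 0.04). Periostin (POSTN), a matricellular protein of fibroblasts, had 57.6, 45.8, 16.6 and 16.8 CPM at 24 h and 7.12, 8.05, 11.2 and 3.72 CPM at 0 h. Chicks 26 and 29 were the high birds at 24 h, yet the lowest 24 h chick was still above every 0 h chick (log2 fold change 2.18 ± 0.44, adjusted p = 0.0147). Chondroadherin (CHAD), a leucine-rich protein of cartilage, averaged 333 ± 18.1 CPM at 24 h and 249.7 ± 19.8 CPM at 0 h (adjusted p = 0.0322). It was the called member of 9 cartilage markers, itself included, of which 3 lay above 0 and 6 below (median -0.14). Their sum, with CHAD in it, was 657.1 to 775.6 CPM at 24 h and 584.6 to 682.1 CPM at 0 h. The part of scleral cartilage was not tested. The laminin chain LAMA3, part of the laminin of epithelial basement membranes, had 34.6, 41.9, 42.5 and 45.7 CPM at 24 h, against 85.9, 80.5, 117 and 124 CPM at 0 h (log2 fold change -1.31 ± 0.20, adjusted p = 0.00225). ITGB4, the integrin subunit that binds that laminin in hemidesmosomes, had 14.8, 17.3, 17.5 and 9.35 CPM at 24 h and 44.9, 33.1, 64.8 and 84.1 CPM at 0 h (log2 fold change -1.98 ± 0.32, adjusted p = 0.00344). For both, every 24 h chick was below every 0 h chick. LAMA4, a laminin chain of blood vessels, averaged 38 ± 6.26 CPM at 24 h and 58.8 ± 9.62 CPM at 0 h (adjusted p = 0.0354). The elastic fibre protein FBLN5 averaged 1.14 ± 0.768 CPM at 24 h and 5.08 ± 0.69 CPM at 0 h (adjusted p = 0.0182), and the proteoglycan lumican (LUM) 2.69 ± 0.821 CPM at 24 h and 8.58 ± 2.46 CPM at 0 h (adjusted p = 0.0176). Counts at 24 h were low in both, at 9, 1, 5 and 2 for FBLN5 and 14, 5, 8 and 8 for LUM. MGP, an inhibitor of calcification, had 264, 177, 169.9 and 161 CPM at 24 h and 61.9, 94.9, 80.1 and 77.2 CPM at 0 h (log2 fold change 1.30 ± 0.22, adjusted p = 0.00446). Calls ended by the loss of 1 library were POSTN without 24 h chick 26 or 0 h chick 13 (0.0699), FBLN5 without 24 h chicks 30 or 32 or 0 h chicks 12 or 13 (0.0905), LUM without 24 h chicks 30 or 32 or 0 h chicks 12 or 13 (0.0832), LAMA4 without 24 h chicks 29, 30 or 32, 0 h chicks 9, 12 or 13 or No-Lens control chick 4 (0.153), and CHAD without 24 h chicks 26, 29 or 32, 0 h chicks 9, 12 or 13 or No-Lens control chick 4 (0.123).

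None of the 33 collagen genes tested was called (median 0.05), and 9 had an unadjusted p under 0.05, against 9.55% of all genes. Of these, 4 were higher and 5 lower, the latter including COL4A1, COL4A2 and COL4A4 (log2 fold change -0.45, -0.50 and -0.42). The likelihood ratio test called 1 collagen gene while DESeq2 and limma-voom called none. The members with the smallest p were COL23A1, a transmembrane collagen, at 9.43 ± 0.131 CPM at 24 h and 5.16 ± 1.37 CPM at 0 h (adjusted p = 0.133), and COL1A2, of fibrillar collagen type I, at 374 ± 99.2 CPM at 24 h and 241 ± 9.34 CPM at 0 h (adjusted p = 0.157). Among 40 proteases and inhibitors, 2 were higher and 1 was lower (median -0.02). SERPINE3, of the serpin family of protease inhibitors, had 22, 32.6, 11.7 and 5.61 CPM at 24 h and 0.821, 1.44, 2.3 and 1.24 CPM at 0 h. It spread widely among the 24 h chicks but did not overlap the 0 h chicks (log2 fold change 3.53 ± 0.54, adjusted p = 0.00225). ADAMTS1, a secreted metalloprotease that cleaves proteoglycans, had 147, 123, 93.1 and 117 CPM at 24 h and 56.1, 71, 68.8 and 44.4 CPM at 0 h (log2 fold change 1.01 ± 0.16, adjusted p = 0.00344). MME (neprilysin), a membrane peptidase that breaks down small peptides, had 32.6, 47.2, 37.2 and 37.6 CPM at 24 h and 79.4, 62.1, 61.1 and 110.1 CPM at 0 h (log2 fold change -1.06 ± 0.21, adjusted p = 0.0148). In the marker list of connective tissue, POSTN and PDGFRA were higher and LUM was lower out of 10 tested. The summed level of that list was 820.6 to 1247 CPM at 24 h and 679 to 821.2 CPM at 0 h, and its part in the matrix results was not tested. Of the transcription factors found in mesenchyme, SNAI1 had 11.4, 14, 7.13 and 5.61 CPM at 24 h and 1.37, 2.59, 3.74 and 2.27 CPM at 0 h (adjusted p = 0.00578), and PRRX2 had 3.21, 9.3, 3.68 and 8.28 CPM at 24 h and 1.09, 0.288, 1.73 and 1.03 CPM at 0 h (adjusted p = 0.0115). Both rose, with every 24 h chick above every 0 h chick. The calls of these genes that depended on 1 library were PRRX2 without 24 h chick 32 (0.0642), and MME without 24 h chicks 26, 30 or 32 or 0 h chick 13 (0.0699).

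Peptides and their receptors included further changes. GCG, the precursor of glucagon, which the chick retina makes in a class of amacrine cells, had 38.3, 59.1, 47.8 and 46.7 CPM at 24 h and 22.2, 23.3, 21 and 19.8 CPM at 0 h. The groups were far apart and the log2 fold change was 1.13 ± 0.13 (adjusted p = 0.000148). VIP, an amacrine cell neuropeptide, had 13.6, 21.3, 20.7 and 24.6 CPM at 24 h and 12, 11.5, 9.51 and 10.1 CPM at 0 h, where 24 h chick 26 lay close to the highest 0 h chick (log2 fold change 0.88 ± 0.19, adjusted p = 0.0215). These were the called members of 20 neuropeptide genes (median 0.10), while the summed amacrine markers were 3360 to 3909 CPM at 24 h and 3445 to 3791 CPM at 0 h. NPR3, the clearance receptor of natriuretic peptides, had 29.2, 38.5, 29.2 and 27.8 CPM at 24 h and 9.58, 10.4, 9.22 and 7.23 CPM at 0 h (log2 fold change 1.76 ± 0.20, adjusted p = 9.32e-05). It was higher and EDNRB was lower among 25 peptide and hormone receptors. The noradrenaline transporter SLC6A2 had 22.5, 16.6, 18.8 and 16.6 CPM at 24 h and 12.9, 6.61, 6.34 and 5.99 CPM at 0 h (log2 fold change 1.25 ± 0.27, adjusted p = 0.0227). It was the called member of 21 dopamine and monoamine genes, and TPH1, the first enzyme of serotonin and melatonin synthesis, came next at 16.8 ± 3.81 CPM at 24 h and 8.69 ± 1.13 CPM at 0 h (adjusted p = 0.0744). RGS16, a regulator that shortens G-protein signals, had 117, 120.2, 98.6 and 90.5 CPM at 24 h and 35.3, 40.3, 29.4 and 36.1 CPM at 0 h (log2 fold change 1.58 ± 0.15, adjusted p = 8.47e-06) and was the called member of 24 immediate early genes. The adhesion receptor GPR133 averaged 10.1 ± 1.71 CPM at 24 h and 4.01 ± 0.675 CPM at 0 h (adjusted p = 0.00344). Leaving out single libraries ended the calls VIP without 24 h chicks 29, 30 or 32 or 0 h chicks 12 or 13 (0.113), and SLC6A2 without 24 h chicks 26, 30 or 32 or 0 h chicks 10, 12 or 13 (0.105).

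Several genes of membrane and secreted proteins fell steeply. FGL2 had 13.1, 17.3, 51.5 and 9.61 CPM at 24 h, against 172, 167, 251 and 382 CPM at 0 h. Even chick 30, the highest at 24 h, was far below the lowest 0 h chick, and the log2 fold change was -3.34 ± 0.48 (adjusted p = 0.00146). The endothelin receptor EDNRB had 10.6, 14.6, 49.7 and 14.2 CPM at 24 h and 118, 84.8, 168 and 226 CPM at 0 h (log2 fold change -2.66 ± 0.45, adjusted p = 0.00416). GPNMB, a glycoprotein of melanosomes and macrophages, had 0.494, 0.664, 21.8 and 9.35 CPM at 24 h and 44.6, 37.1, 63.7 and 84.5 CPM at 0 h (log2 fold change -2.63 ± 0.55, adjusted p = 0.0185). In both, chick 30 was again the highest bird at 24 h and chick 13 the highest at 0 h. CA4, a membrane-anchored carbonic anhydrase, had 58.3, 67.8, 71.9 and 59 CPM at 24 h and 218, 213, 278 and 533 CPM at 0 h (log2 fold change -2.28 ± 0.35, adjusted p = 0.00225). The 24 h chicks were nearly equal and the 0 h chicks spread widely, with chick 13 far above the others. The carboxypeptidase CPA6 averaged 1.76 ± 1.74 CPM at 24 h and 18.5 ± 7.37 CPM at 0 h (adjusted p = 0.0043). F2RL1, a protease-activated receptor, averaged 0.667 ± 0.149 CPM at 24 h and 5.53 ± 2.3 CPM at 0 h (adjusted p = 0.00344), and PTGFR, the receptor of prostaglandin F2-alpha, 1.19 ± 0.688 CPM at 24 h and 9.63 ± 3.48 CPM at 0 h (adjusted p = 0.0147). The 24 h counts were few, at 8, 1, 18 and 1 for CPA6, 3, 1, 2 and 3 for F2RL1 and 7, 1, 8 and 2 for PTGFR. The spread of these 3 genes at 24 h is therefore poorly measured. All these genes fell without overlap between the groups. ATP6V1C2, a subunit of the proton pump, averaged 3.23 ± 1.71 CPM at 24 h and 18.6 ± 4.79 CPM at 0 h (adjusted p = 0.00689) and was the called member of 28 iron uptake genes. The potassium channel KCNJ15 averaged 2.35 ± 0.907 CPM at 24 h and 9.44 ± 4.53 CPM at 0 h (adjusted p = 0.0478), and the adhesion receptor GPR126 5.48 ± 3.14 CPM at 24 h and 20.6 ± 8.5 CPM at 0 h (adjusted p = 0.0122). Calls lost without 1 library were GPNMB without 24 h chicks 29 or 32 or 0 h chicks 12 or 13 (0.076), GPR126 without 24 h chick 32 or 0 h chick 13 (0.0642), PTGFR without 24 h chick 32 or 0 h chick 13 (0.075), and KCNJ15 in 12 of the 16 fits, all but those without 0 h chick 9, 6 h chicks 18 or 23 or No-Lens control chick 3 (0.2).

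Certain birds in each of the 4 groups were often the highest or the lowest across the 60 falls. Chick 30 was the highest of the 24 h chicks in 27 of them (45%), against 18.4% of all genes tested. Chick 13 was the highest of the 0 h chicks in 36 (60%), against 21.2% of all genes, and chick 10 the lowest in 32 (53.3%), against 25.8%. In the 6 h group, chick 23 was the lowest in 47 of the 60 (78.3%), against 32.3% of all genes, and chick 18 the highest in 31 (51.7%), against 24.0%. That group entered the comparison through the filter, the normalization and the shared estimate of the spread. In the No-Lens control group, chick 7 was the lowest in 34 (56.7%), against 26.9% of all genes, and chick 4 the highest in 26 (43.3%), against 19.5%. For FGL2 the 6 h values were 293, 300.1, 293 and 72.5 CPM in chicks 18, 19, 21 and 23, and for EDNRB they were 207, 182, 163 and 59.5 CPM. What set these birds apart was not tested.

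**Figure D3:**
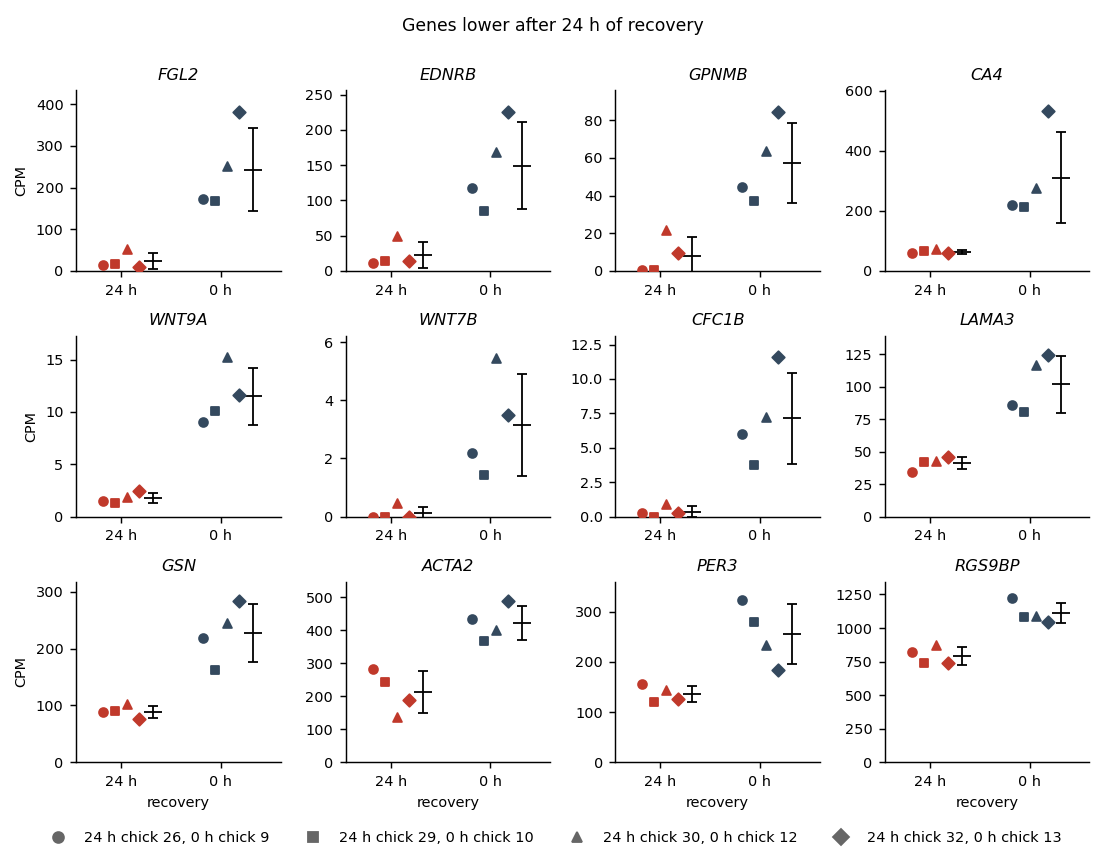
CPM of 12 genes lower after 24 h of recovery, with 1 point per chick on a linear axis from 0, FDMR 24 h (red) left of FDMR 0 h (dark), and the mean ± SD of 4 chicks beside the points, with bars cut at 0. Marker shapes name chicks and do not pair them. Triangles at 24 h (chick 30) are the highest in FGL2, EDNRB and GPNMB, and diamonds at 0 h (chick 13) the highest in FGL2, EDNRB, GPNMB and CA4.

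The called members of the smooth muscle and endothelial lists were lower. Of 15 smooth muscle contraction genes tested, 2 were lower, none was higher, and the median of -0.36 lay below that of all genes. ACTA2, smooth muscle actin, had 282, 244, 137 and 188 CPM at 24 h and 435, 369, 400.4 and 489 CPM at 0 h, or 212 ± 63.6 against 423 ± 51.5 CPM on average (adjusted p = 0.0211), although its reads are hard to separate from those of other actin genes. MYLK, the kinase that starts smooth muscle contraction, averaged 393 ± 46.5 CPM at 24 h and 514 ± 54.4 CPM at 0 h (adjusted p = 0.0405). Of 12 endothelial markers, 2 were lower. VWF, the clotting factor of endothelial cells, had 144, 99.6, 94.2 and 79.3 CPM at 24 h and 171, 132, 215 and 226 CPM at 0 h, and here chick 26 at 24 h was above chick 10 at 0 h (log2 fold change -0.83 ± 0.18, adjusted p = 0.0305). FLT1, a receptor of vascular endothelial growth factor, had 13.3, 19.9, 14.3 and 13.1 CPM at 24 h and 24.9, 25.6, 21.6 and 35.1 CPM at 0 h (log2 fold change -0.89 ± 0.20, adjusted p = 0.031). The summed endothelial markers were 606.1 to 672.2 CPM at 24 h and 662.9 to 840.5 CPM at 0 h, 9 of the 12 lay below 0 and the median was -0.15. Of the 3 defining markers, VWF was called, and CDH5 and KDR had log2 fold changes of -0.17 and -0.05 (adjusted p = 0.783 and 0.903). The part of endothelial cell number in these results was not tested. In the list of FGF, VEGF and PDGF signalling, PDGFRA (120 ± 22.7 CPM at 24 h and 67.6 ± 3.96 CPM at 0 h, adjusted p = 0.00253) and FGFR3 (158 ± 21.2 CPM at 24 h and 102 ± 5.9 CPM at 0 h, adjusted p = 0.0211) were higher, so that 2 of 44 tested rose and 1, FLT1, fell. RHAG, a membrane protein of red blood cells, averaged 8.32 ± 3.33 CPM at 24 h and 2.59 ± 0.567 CPM at 0 h (adjusted p = 0.0148). It was the called member of 7 red cell markers. Their sum was 1995 to 2214 CPM at 24 h and 1555 to 1869 CPM at 0 h. Most of that sum was CA2, a gene also in the Mueller glia list. CA2 averaged 1776 ± 44.6 CPM at 24 h and 1506 ± 155 CPM at 0 h (adjusted p = 0.197). The red cell marker HBG2 averaged 279 CPM at 24 h and 177 CPM at 0 h (adjusted p = 0.634). The part of blood in these results was not tested. Single libraries whose loss ended a call were RHAG without 0 h chick 13 (0.072), ACTA2 without 24 h chicks 30 or 32 or 0 h chicks 9 or 13 (0.102), VWF without 24 h chicks 29, 30 or 32 or 0 h chicks 12 or 13 (0.144), FLT1 without 24 h chicks 26, 30 or 32 or 0 h chicks 9, 10 or 13 (0.144), FGFR3 without 24 h chicks 26, 29 or 32 or 0 h chicks 9, 10 or 13 (0.0762), and MYLK in 10 of the 16 fits, all but those without 24 h chick 26, 0 h chick 10, 6 h chicks 19 or 23 or No-Lens control chicks 3 or 7 (0.157).

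Of the clock genes, 4 differed between these groups, both taken at about 10 am, and the part of the exact hour was not tested. ARNTL, the BMAL1 activator of the circadian loop, had 85.8, 106, 85 and 102 CPM at 24 h and 67.3, 59.2, 61.6 and 63 CPM at 0 h (log2 fold change 0.58 ± 0.10, adjusted p = 0.00636). The repressor PER3 had 155, 121, 143 and 126 CPM at 24 h and 323, 279.5, 234 and 184 CPM at 0 h, a log2 fold change of -0.89 ± 0.16 (adjusted p = 0.00581). Neither gene overlapped between the groups. PER2, another period gene, averaged 767 ± 45.1 CPM at 24 h and 989 ± 60.8 CPM at 0 h (adjusted p = 0.0237), and NR1D2, a nuclear receptor that represses ARNTL, 312 ± 3.6 CPM at 24 h and 435 ± 51.8 CPM at 0 h (adjusted p = 0.0182). Thus 1 of 23 clock genes was higher and 3 were lower (median 0.05). Of 18 cone phototransduction genes, 2 were called lower and none higher (median -0.03). The members moved both ways, with 9 above 0 and 9 below and log2 fold changes from -0.56 to 0.94. At an unadjusted p under 0.05, 4 were higher and 6 lower, against 4.62% and 4.92% of all genes. CNGA3, a subunit of the cyclic nucleotide-gated channel of cones, had 159, 109, 135 and 119.9 CPM at 24 h and 220.3, 199, 159 and 199 CPM at 0 h (log2 fold change -0.56 ± 0.11, adjusted p = 0.015). RGS9BP, the membrane anchor of the complex that ends the photoresponse, had 819, 740, 875 and 737 CPM at 24 h and 1221, 1086, 1089.9 and 1046 CPM at 0 h (log2 fold change -0.48 ± 0.08, adjusted p = 0.00286). The cone phosphodiesterase PDE6C, at 564 ± 39.3 CPM at 24 h and 715 ± 58 CPM at 0 h, missed the threshold (adjusted p = 0.0524). No rod gene of 13 was called, 4 had an unadjusted p under 0.05 (against 9.55% of all genes) and DESeq2 called 2. CNGB1 of the rod channel averaged 68.2 ± 14 CPM at 24 h and 36.5 ± 7.98 CPM at 0 h (adjusted p = 0.1). The rod phosphodiesterase PDE6B averaged 299 ± 27.3 CPM at 24 h and 377 ± 28.4 CPM at 0 h (adjusted p = 0.105). Calls that fell away with 1 library were CNGA3 without 24 h chick 32 or 0 h chicks 9 or 13 (0.0739), NR1D2 without 24 h chicks 30 or 32 or 0 h chicks 9 or 10 (0.0715), and PER2 without 24 h chicks 29 or 32 or 0 h chicks 9, 10 or 12 (0.0922).

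Among other groups, calls were few. HSPA5, the main chaperone of the endoplasmic reticulum, had 339, 444, 361 and 342 CPM at 24 h and 254, 243, 279 and 288 CPM at 0 h (log2 fold change 0.47 ± 0.08, adjusted p = 0.00673). It was the called member of 23 chaperones, of which 9 had an unadjusted p under 0.05, all higher, against 4.62% of all genes. MITF, the transcription factor of pigment cells, averaged 66.1 ± 3.21 CPM at 24 h and 83.1 ± 2.73 CPM at 0 h (adjusted p = 0.031) and was the called member of 15 melanin genes. Of these, 9 lay above 0 and 6 below, with a median of 0.10. The melanocyte markers TYR, TYRP1, DCT and PMEL had log2 fold changes of 0.69, 0.22, 0.08 and 0.90. MLANA had -0.34, and none of these markers was called. RGR was the called member of 18 RPE markers, whose sum was 4599 to 5050 CPM at 24 h and 4345 to 4448 CPM at 0 h. Of the 18, 14 lay above 0 and 4 below (median 0.21), and the part of the RPE in these results was not tested. The 12 mitochondrially encoded genes had a median of 0.43 and none was called, while DESeq2 and the likelihood ratio test each called 1. Of them, 11 had an unadjusted p under 0.05 with a higher level at 24 h, against 4.62% of all genes. MT-ND2, of respiratory complex I, had 2396, 4719, 3276 and 3476 CPM at 24 h and 2216, 2462, 2256 and 2601 CPM at 0 h, with chick 29 the highest, and the median of the list was 0.26 without that chick. Altogether 15 of the 43 lists held no called member. Over their 205 genes tested, 50 had an unadjusted p under 0.05, against 9.55% of all genes. DESeq2 called 6 of the 205, the likelihood ratio test 8 and limma-voom none. These lists were those without a call. They included GABA and glycine receptors (22 tested, median -0.01, none at an unadjusted p under 0.05) and amino acid transport (24 tested, median -0.06, 9 at an unadjusted p under 0.05), and also the markers of bipolar, horizontal, ganglion and Mueller cells. Without single libraries the MITF call was lost as follows: MITF without 24 h chicks 26, 29 or 32 or 0 h chicks 9, 10, 12 or 13 (0.105).

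**Figure D4:**
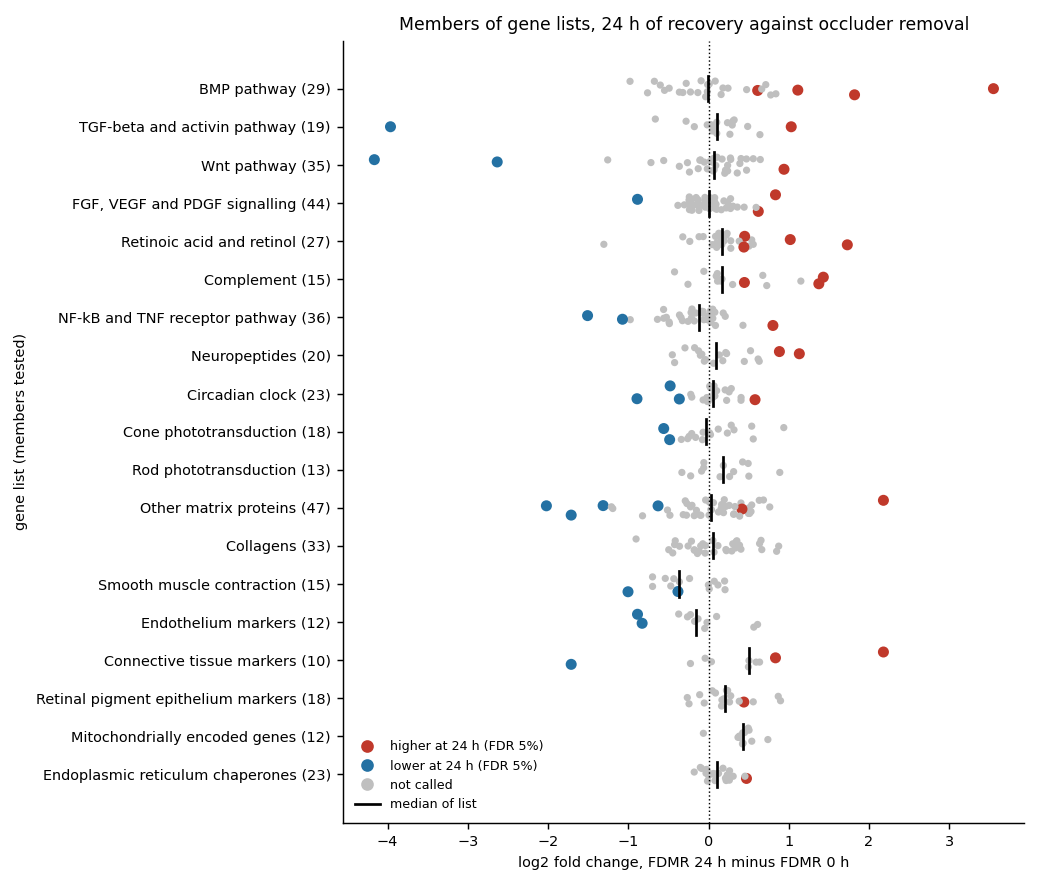
Log2 fold change of FDMR 24 h minus FDMR 0 h (horizontal axis) for each tested member of 19 gene lists (rows, with the number tested), with the black bar at the median of the list and the dotted line at the median of all genes. Red and blue points are called members, and the smooth muscle list has its median furthest below 0, at -0.36.

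The other groups place these levels, in the order No-Lens control, 0 h, 6 h and 24 h. All contrasts with the 0 h group share its 4 chicks, so their values stand side by side and are not independent. The contrasts of 24 h with the control and with 6 h reuse the 4 chicks at 24 h. The genes below were picked for their difference between 24 h and 0 h, so these contrasts are no separate support for it. BMP2 averaged 17.5 ± 3.49, 4.24 ± 1.78, 68.3 ± 8.19 and 49.1 ± 5.07 CPM (SD, n = 4 each), and the 24 h level was above the control (log2 fold change 1.48, adjusted p = 0.000186). ALDH1A2 averaged 168 ± 41.9, 102 ± 8.14, 295 ± 48.7 and 338 ± 60.5 CPM, again above the control at 24 h (1.01, adjusted p = 0.00177). BCMO1 averaged 87.2 ± 4.22, 69.4 ± 4.97, 72.3 ± 25.3 and 140.2 ± 9.65 CPM, where the 6 h group stood near the 0 h group. WNT9A averaged 2.93 ± 0.488, 11.5 ± 2.73, 0.543 ± 0.619 and 1.76 ± 0.477 CPM, high at 0 h alone, and its 24 h level did not pass the test against the control (-0.66, adjusted p = 0.464). By contrast FGL2 averaged 358 ± 84.5, 243 ± 100.3, 239.7 ± 112 and 22.9 ± 19.3 CPM, and at 24 h it was below the control (-3.89, adjusted p = 0.000324). LAMA3 was at 132 ± 16.5, 102 ± 21.9, 106 ± 33.7 and 41.2 ± 4.67 CPM and was likewise below the control at 24 h (-1.68, adjusted p = 0.00022). VWF was at 235 ± 31.6, 186 ± 43, 239 ± 40.4 and 104 ± 28 CPM, below the control at 24 h (-1.17, adjusted p = 0.00212). ARNTL was at 68.1 ± 11.3, 62.8 ± 3.39, 199 ± 4.64 and 94.7 ± 10.8 CPM and PER3 at 221 ± 37.4, 255 ± 59.7, 65.7 ± 10.7 and 136 ± 15.9 CPM, so that the 6 h chicks, taken in the afternoon, held the extreme value of each. The cone genes CNGA3 and RGS9BP were lowest at 6 h, again in the afternoon chicks, at 85.3 ± 2.64 and 584 ± 40.2 CPM. In the control and at 0 h, CNGA3 averaged 196 ± 24.4 and 194 ± 25.5 CPM, and RGS9BP 1069 ± 83.6 and 1111 ± 76.3 CPM. Both were higher at 24 h than at 6 h (0.63, adjusted p = 0.00608, and 0.44, adjusted p = 0.00375). At 24 h both were below the control (-0.57, adjusted p = 0.0117, and -0.43, adjusted p = 0.00569). Counted over all genes by the same test, 151 genes (1.33%) differed between 24 h and the control, 362 (3.19%) between 6 h and 0 h, and 3 (0.0265%) between 0 h and the control.

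**Figure D5:**
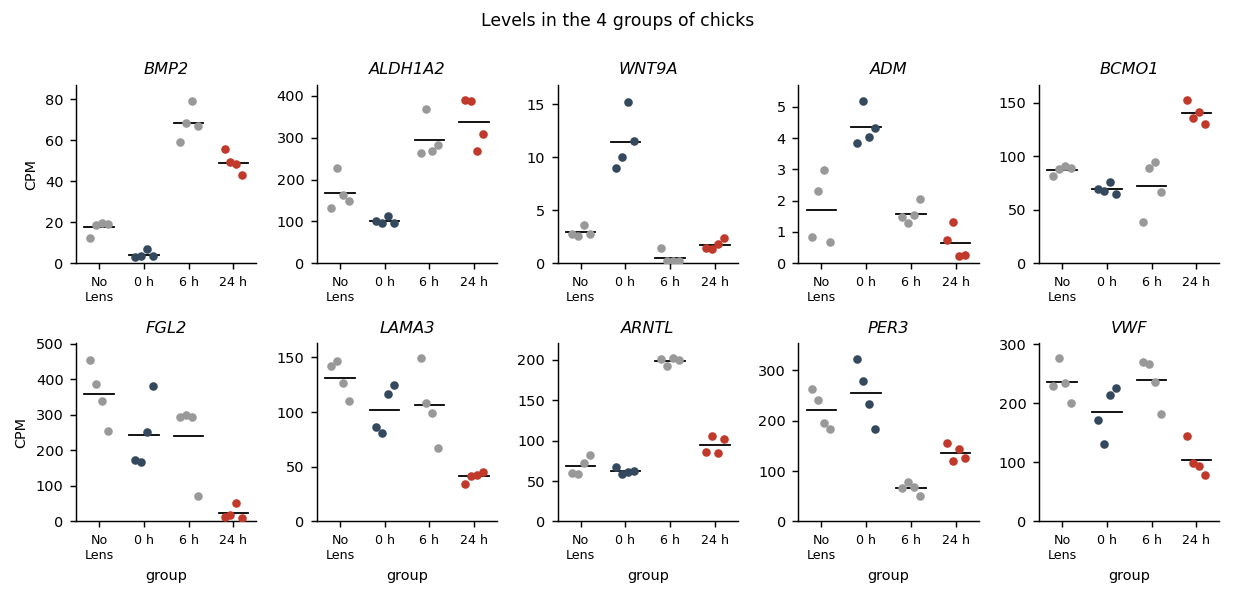
CPM of 10 genes in each chick (points) with the group mean (line), on linear axes from 0, in the order No-Lens control, FDMR 0 h, FDMR 6 h and FDMR 24 h. BMP2 and ALDH1A2 are high at 6 h and 24 h, WNT9A and ADM are high at 0 h, BCMO1 is high at 24 h, and FGL2, LAMA3 and VWF are lowest at 24 h.

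Some called genes were outside the rule for named genes and were chosen after their values were seen. SULF1, an enzyme that trims heparan sulphate, had 92.7, 91, 92.4 and 100.1 CPM at 24 h and 54.2, 57.5, 46.1 and 54.9 CPM at 0 h (log2 fold change 0.82 ± 0.10, adjusted p = 0.000132). KCNJ13, a potassium channel of the RPE, had 45, 47.2, 40 and 39.8 CPM at 24 h and 24.4, 19.6, 23.3 and 23.7 CPM at 0 h (log2 fold change 0.90 ± 0.10, adjusted p = 9.32e-05). Both showed little spread within a group and no overlap. Secreted factors that were higher included IGF2 (31.5 ± 8.25 CPM at 24 h and 16.1 ± 2.96 CPM at 0 h, adjusted p = 0.0147) and stanniocalcin 2, STC2 (33.3 ± 3.99 CPM at 24 h and 15.2 ± 4.33 CPM at 0 h, adjusted p = 0.00395). Also higher, the matrix-associated gene FNDC1 averaged 116 ± 14.9 CPM at 24 h and 63.6 ± 7.3 CPM at 0 h (adjusted p = 0.00216). The calcium channel subunit CACNA2D4 was higher, at 209 ± 19 CPM at 24 h and 142 ± 10.5 CPM at 0 h (adjusted p = 0.00527), as were the phosphatase PPEF2, at 74.9 ± 18.1 CPM at 24 h and 49.7 ± 2.69 CPM at 0 h (adjusted p = 0.0336), and the nuclear receptor ESRRB, at 112 ± 6.98 CPM at 24 h and 83.8 ± 9.14 CPM at 0 h (adjusted p = 0.0274). Secreted factors also fell. The vasodilator adrenomedullin (ADM) had 0.742, 1.33, 0.23 and 0.267 CPM at 24 h and 3.83, 5.18, 4.03 and 4.34 CPM at 0 h (log2 fold change -2.98 ± 0.50, adjusted p = 0.00418), and norrin (NDP), a ligand of retinal vessel growth, averaged 3.34 ± 0.985 CPM at 24 h and 10.3 ± 3.49 CPM at 0 h (adjusted p = 0.00779). PRLL, a prolactin-like gene, averaged 0.413 ± 0.495 CPM at 24 h and 4.95 ± 2.24 CPM at 0 h (adjusted p = 0.022), and the proteoglycan podocan (PODN) 52.6 ± 9.4 CPM at 24 h and 90.2 ± 16.5 CPM at 0 h (adjusted p = 0.0273). At 24 h ADM had only 3, 2, 1 and 1 counts and PRLL only 4, 1, 0 and 0. Of the 10 called genes without a symbol, ENSGALG00000004501 had 0.494, 23.3, 5.29 and 6.14 CPM at 24 h and no count in any 0 h chick, at least 30.9-fold higher against a floor of 3 counts over the 0 h group (adjusted p = 0.0133). It was at its highest in chick 29 and near the floor in chick 26. ENSGALG00000010901 fell, at 11.1 ± 5.17 CPM at 24 h and 72.4 ± 27.6 CPM at 0 h (adjusted p = 0.00146). The calls in this group of genes that were lost without 1 library were IGF2 without 24 h chick 32 or 0 h chicks 10 or 12 (0.0604), PRLL without 24 h chicks 30 or 32 or 0 h chicks 9 or 10 (0.103), PODN without 24 h chicks 30 or 32 or 0 h chicks 12 or 13 (0.12), ESRRB without 24 h chicks 29, 30 or 32 or 0 h chicks 9, 12 or 13 (0.123), and PPEF2 without 24 h chicks 30 or 32, 0 h chicks 9, 10, 12 or 13 or No-Lens control chick 4 (0.153).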

How the data were processed

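RNA-seq was measured in 16 chick libraries, 1 per chick, made with a strand-marking mRNA kit from 1 right eye each and sequenced single-end. The values are whole-number read counts per gene that the authors deposited in 1 table for 17108 genes, with 6 further lines that name no gene. Those lines held 41.9% to 45.9% of the entries in the 8 libraries compared and were left out of library sizes and tests. Per the submitters' processing notes, FastQC, cutadapt, Trimmomatic, TopHat2, Bowtie2, HTSeq and the build galGal4 were used. The strand setting of the counting and the annotation release are not given in the sources used here, so overlapping, antisense and near-identical genes, such as actins, are uncertain. The deposited symbol was kept for 13477 of the genes. For another 294 a differing symbol in the deposited description replaced it, as for ACTA2, deposited as ACTG2. RefSeq accessions named a further 37.

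A gene was tested if 4 or more of the 16 libraries had 10 or more counts of it (11334 genes). edgeR 4.0.16 in R 4.3.3 was used with TMM normalization and a quasi-likelihood fit of the 4 groups over all 16 libraries, so that they shared 1 estimate of the spread, and the contrast was FDMR 24 h minus FDMR 0 h. P-values were adjusted by Benjamini-Hochberg over all genes tested, and a gene was called at an FDR of 5%. SE is the log2 fold change divided by the square root of its F statistic, and CPM uses TMM library sizes. The biological coefficient of variation was 12.53%. Tested on simulated counts for the same comparison and 11334 genes, the procedure called 157 of 200 genes changed by 1 on the log2 scale and 10 unchanged genes.

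Named genes were the 15 largest rises and the 15 largest falls by fold, drawn from calls whose groups did not overlap, that carried a symbol and averaged 10 or more counts in the 8 libraries, every called member of 43 gene lists, the 2 members of smallest p in a described list with fewer than 2 calls, and defining cell type markers. The lists and the comparison were chosen with earlier results of these data known. Alternatives were DESeq2 1.42.0, limma-voom (limma 3.58.1), RLE size factors, the likelihood ratio test of edgeR, other filters, other sets of libraries, thinning to equal depth, an FDR of 1% and leaving out each library in turn. The labels give no batch. Intervals and floors cover counting error only.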

Additional observations from a re-analysis of the deposited data

Results flagged for a closer look

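Within groups of 4 chicks, 1 bird lay far from the other 3 in 13 of 166 gene and group combinations examined, by Dixon's criterion at 95%. Chance gives such a value in about 1 of 20 groups. No explanation was tested for any of them. At 24 h, chick 29 was high in NPR3 (38.5 CPM, others 27.8 to 29.2), RHAG (13.3 CPM, others 6.41 to 7.17), MASP1 (14.6 CPM, others 7.13 to 7.91), C7 (99 CPM, others 46.4 to 53.1) and FLT1 (19.9 CPM, others 13.1 to 14.3). It was the library with the fewest counts. Chick 30 at 24 h was high in EDNRB (49.7 CPM, others 10.6 to 14.6), ENSGALG00000010901 (18.8 CPM, others 7.97 to 9.35) and WNT7B (0.46 CPM, from 2 counts, others 0), and low in CHAD (306 CPM, others 341 to 344). Chick 26 at 24 h was high in MGP (264 CPM, others 161 to 177). In the 0 h group, PTX3 was high in chick 13 (1.24 CPM, others 0.547 to 0.576), BMP2 in chick 12 (6.91 CPM, others 3.28 to 3.45) and SLC6A2 in chick 9 (12.9 CPM, others 5.99 to 6.61).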

How the results depend on the processing

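Against 127 genes called, DESeq2 called 194 (125 shared), edgeR's likelihood ratio test 225 (127 shared), libraries thinned to 1553717 counts 81 (75 shared) and an FDR of 1% 54. Counts with limma-voom (93), RLE size factors (127), no filter (133), a filter of 1 CPM in 4 libraries (130), the 8 libraries compared (112) and the 12 occluded libraries (127) stayed within 1.5 times. Leaving out 1 library gave 64 to 154 calls. The lowest counts were 64 without FDMR 24 h chick 32, of which 65.6% were higher against 52.8% in all, 76 without FDMR 0 h chick 13 and 84 without FDMR 0 h chick 12, and the highest 154 without No-Lens control chick 3. Of the named called genes, 44 higher and 38 lower, none changed sign in any alternative that gave a value, and 7 had no value after thinning. limma-voom called 39 of the 44 and 26 of the 38, and without FDMR 24 h chick 32 the numbers were 29 and 18. Among named genes that were not called, CRYBA1 (log2 fold change 0.84) reversed without FDMR 24 h chick 32, with a range of -0.055 to 1.16 over the fits that left out 1 library. Depth limited low genes, since 3 counts were worth 1.93 CPM in FDMR 24 h chick 29 and 0.623 CPM in the deepest 0 h library. Recovery, 1 more day of age and any difference in the exact hour of collection cannot be told apart in this comparison. No paired analysis was possible because the groups share no replicate numbers.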
